A study of Mus musculus with 16 samples.

Results

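The fibrillar collagen genes were described in tdTomato-labelled lung cells. They were 8 genes of collagen types I, II, III, V and XI in the deposited gene tables (Col11a2, a further chain of type XI, was not among them): Col1a1, Col1a2, Col2a1, Col3a1, Col5a1, Col5a2, Col5a3 and Col11a1. They were 8 of the 49452 genes listed, and they were matched by symbol, with no threshold on their values. Expression was given as FPKM, fragments per kilobase of transcript normalised to the mapped fragments of the library, so levels of different genes could be compared per length.

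Fibrillar collagens are secreted as procollagens, in which chains wind into a triple helix, and after trimming of their ends the molecules line up into the banded fibrils that give connective tissue its tensile strength. Type I is built from the chains of Col1a1 and Col1a2, with the former in excess, type III from Col3a1 alone, and type V from Col5a1 and Col5a2, with Col5a3 in a further form. In the lung, types I and III make up most of the interstitial fibrils and accumulate in fibrosis, and the low-abundance type V lies within the fibrils and controls how they start and how thick they grow. Type II, from Col2a1, and type XI, which includes the Col11a1 chain, are best known from cartilage.

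The samples were 16 libraries, 1 per mouse, in 4 groups of 4. Acta2-CreERT2; tdTomatoflox mice (Acta2-tdT) express the tamoxifen-inducible recombinase from the promoter of alpha smooth muscle actin, and Pdgfra-CreERT2; tdTomatoflox mice (Pdgfra-tdT) from that of PDGF receptor alpha, a receptor of mesenchymal cells; recombination leaves a cell and its descendants red. Mice of each line received saline (mice 1 to 4) or bleomycin (mice 5 to 8), a drug that injures the lung and leads to fibrosis, and red cells were sorted after 14 days, at 11 weeks of age, for full-length cDNA sequencing without strand information. Acta2-tdT mice were given tamoxifen in food at 400 mg/kg from 5 days after instillation, whereas Pdgfra-tdT mice had 5 injections of 3 mg at 6 weeks of age, so line and labelling schedule cannot be told apart. In the Acta2-tdT line, cells that began to express the gene during injury could therefore be labelled as well. The genes that name the lines were as labelled with saline. Acta2 had a median of 218 FPKM in Acta2-tdT saline mice and 7.77 FPKM in Pdgfra-tdT saline mice. Pdgfra was at a median of 0.355 FPKM in Acta2-tdT and 2.60 FPKM in Pdgfra-tdT saline mice, a log2 difference of -1.43 (limma adjusted p = 0.00971), also as labelled. With bleomycin Pdgfra had a median of 8.55 FPKM in Acta2-tdT and 1.69 FPKM in Pdgfra-tdT mice, a log2 difference of 1.60 (limma adjusted p = 0.00895) that turned to -0.43 (adjusted p = 0.342) on the scaled values defined in the next paragraph.

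One group stood apart as a whole. The FPKM of the 21950 nuclear protein-coding genes summed to a median of 376953 in Acta2-tdT bleomycin mice (range 231058 to 463127), against medians of 42700 in Acta2-tdT saline mice and of 33068.5 (saline) and 46107.5 (bleomycin) in the Pdgfra-tdT line. Olfactory and vomeronasal receptor genes, which serve as a gauge of background here, had a group median, over 1747 genes, of 0.0231 FPKM in Acta2-tdT mice with bleomycin but of 0.314 FPKM in those with saline, and of 0.303 FPKM (saline) and 0.282 FPKM (bleomycin) in the other line. Each change is therefore given on FPKM and again on scaled FPKM, for which the FPKM of the nuclear protein-coding genes were set to a sum of 100000 in every mouse. Ratios between chains within a mouse are the same on both scales.

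In Acta2-tdT cells the type I, III and V genes were far higher with bleomycin than with saline. Col1a1, which encodes the alpha 1 chain of type I, was at 2.06, 1.76, 1.87 and 2.44 FPKM in the 4 saline mice and at 499, 275, 906 and 1002 FPKM in the 4 bleomycin mice. All 4 bleomycin mice lay above all saline mice, and Col1a1 moved from rank 1881 to 2813 of the nuclear protein-coding genes to rank 39 to 103. The mean rose from 2.03 ± 0.299 to 671 ± 342 FPKM (SD, n = 4), a 330-fold difference of means. On scaled FPKM the mean rose from 4.65 ± 0.771 to 175 ± 45.7 (SD, n = 4), or 37.7-fold.

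Col1a2, the alpha 2 chain, was at 2.97, 2.71, 3.09 and 3.87 FPKM in saline mice and at 563, 305, 642 and 834 FPKM in bleomycin mice. The groups were again fully apart, and mouse 6 was the lowest of the bleomycin mice for both type I chains. Mean Col1a2 was 3.16 ± 0.499 and 586 ± 219 FPKM (SD, n = 4), a 185-fold difference, or 22.1-fold on scaled FPKM. Col3a1, the only chain of type III, was at 2.26, 1.84, 1.71 and 2.55 FPKM in saline and at 183, 113, 318 and 503 FPKM in bleomycin mice. It did not overlap between the groups either, with means that differed 134-fold on FPKM and 15.0-fold on scaled FPKM.

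The minor type V chains followed at lower levels. Col5a1 was at 0.259, 0.411, 0.401 and 0.544 FPKM in saline mice and at 53.8, 24.3, 59.5 and 80.2 FPKM in bleomycin mice. Col5a2 was at 0.394, 0.656, 0.654 and 0.736 FPKM in saline mice and at 74.0, 40.8, 116 and 154 FPKM in bleomycin mice. Col5a3 was at 0.229, 0.304, 0.224 and 0.1002 FPKM in saline mice and at 26.0, 20.6, 38.1 and 53.0 FPKM in bleomycin mice. Every bleomycin mouse was above every saline mouse for each of the 3 type V genes, and mouse 6 was the lowest and mouse 8 the highest of the bleomycin mice each time. The saline levels were of the order of the receptor-gene background, so the 135-, 158- and 161-fold differences of means (Col5a1, Col5a2 and Col5a3) rest on denominators near it. On scaled FPKM they were 16.1-, 18.2- and 17.7-fold, with the same limit, since scaling a mouse moves its background as well.

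**Figure D1:**
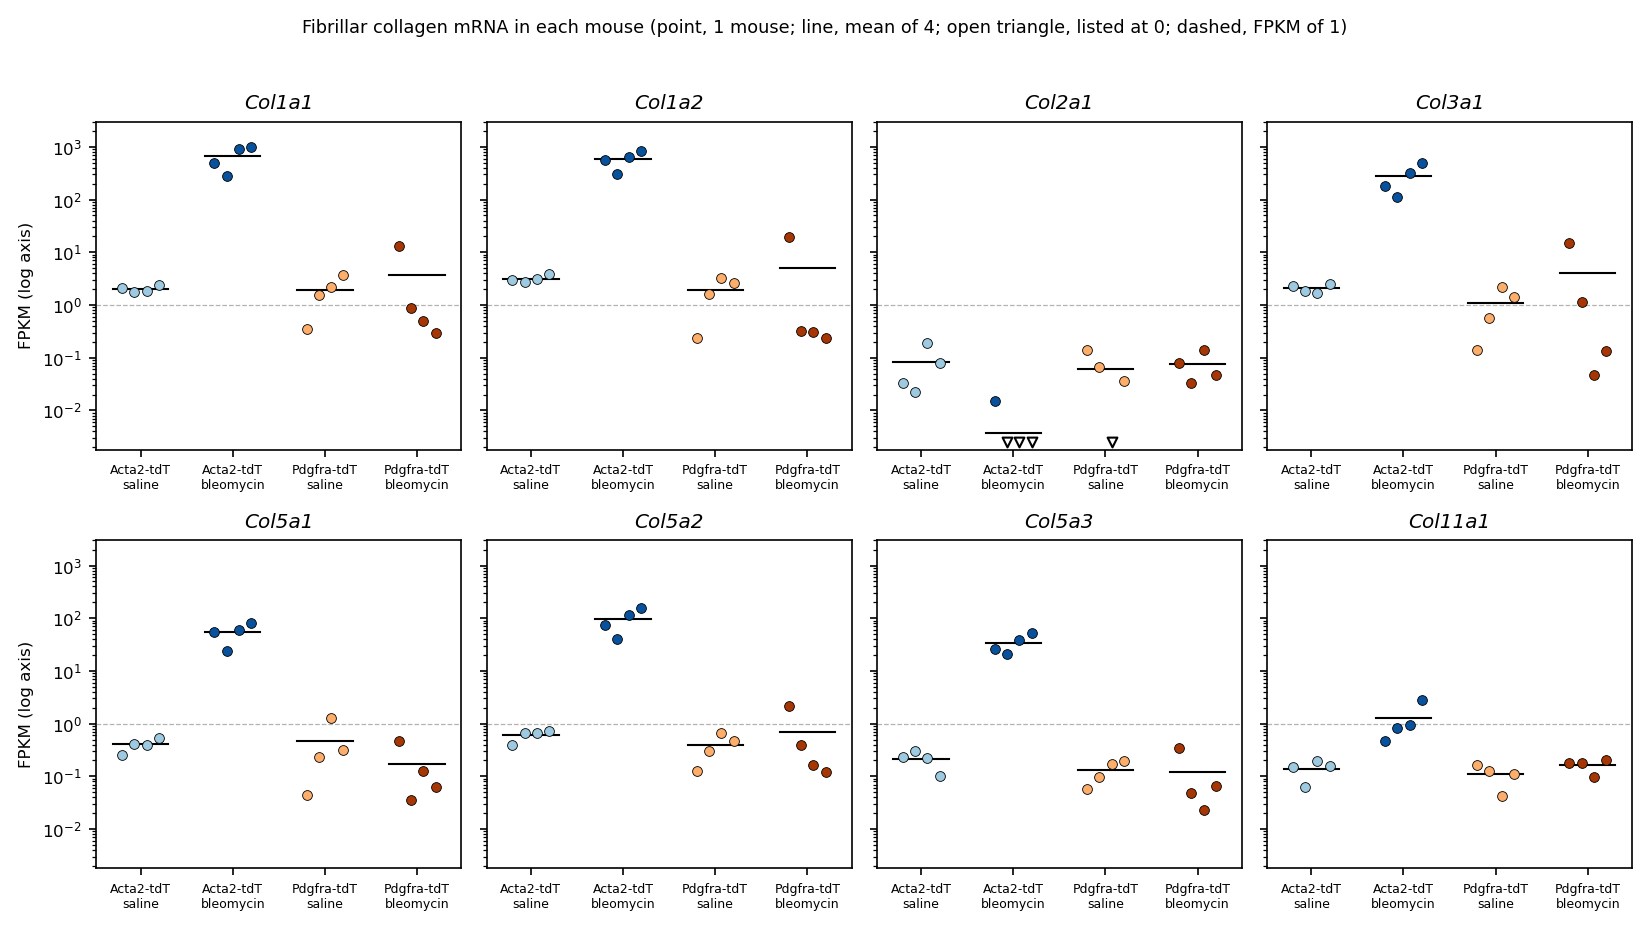
FPKM of the 8 fibrillar collagen genes in each of the 16 mice, on a log axis, with one point per mouse, the 4 groups side by side and values of 0 drawn at the foot of the axis. Type I, III and V genes of the 4 Acta2-tdT bleomycin mice sit between 20.6 and 1002 FPKM, above every other mouse, and 1 Pdgfra-tdT bleomycin mouse stands above the rest of its group.

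The cartilage chains behaved differently. Col11a1, the alpha 1 chain of type XI, was at 0.147, 0.0637, 0.197 and 0.155 FPKM in saline and at 0.477, 0.839, 0.949 and 2.77 FPKM in bleomycin mice. The groups did not overlap on FPKM, with means that differed 8.94-fold, but they overlapped on scaled FPKM, with 0.179 to 0.406 in saline and 0.150 to 0.598 in bleomycin mice and means that differed 1.06-fold. The saline levels of Col11a1 lay below the receptor-gene median of that group, 0.314 FPKM, and the bleomycin levels above theirs, 0.0231 FPKM. Both folds of Col11a1 therefore rest on denominators below background. Col2a1, the chain of type II, was at 0.0227 to 0.192 FPKM in saline mice, and in bleomycin mice it was at 0.0150 FPKM in mouse 5 and listed at 0 in the other 3. Its saline levels lay below the median of the receptor genes. The chondrocyte marker list of 7 genes summed to 0.318 to 0.545 FPKM in saline and 1.64 to 3.62 FPKM in bleomycin mice, of which Sox9, a transcription factor of cartilage that other cell types use as well, made up 1.24 to 2.87 FPKM in the latter. On scaled FPKM the list summed to 0.654 to 1.48 and 0.597 to 0.830, and in bleomycin mice Lect1 was listed at 0 in all 4 and Matn1 in 3 of 4. The part of these cells in the Col2a1 and Col11a1 levels was not tested.

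The genes lie on 7 chromosomes. In GRCm38 coordinates of the GENCODE M21 annotation, Col1a1 spans chr11:94936224-94953042 (plus strand, 51 exons) and Col1a2 starts at base 4504814 of chromosome 6 (plus strand, 52 exons). Col3a1, at chr1:45311538-45349706 (plus strand, 51 exons), and Col5a2, at chr1:45374321-45503282 (minus strand, 54 exons), run toward each other. Col5a1 is at chr2:27886425-28039514 (plus strand, 66 exons), Col5a3 at chr9:20770050-20815067 (minus strand, 67 exons), Col11a1 at chr3:114030540-114220718 (plus strand, 67 exons) and Col2a1 at chr15:97975602-98004695 (minus strand, 54 exons). Col5a1 overlaps the antisense genes 2810430I11Rik and Gm13372, Col5a3 overlaps Gm26274 on the other strand, and Col1a2, Col3a1 and Col5a2 overlap Gm43921, Gm47302 and Gm38211 on their own strand, and without strand information reads of overlapping genes cannot be told apart.

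The promoters are shown because the type III and V genes moved together with bleomycin while Col11a1 overlapped between the groups on scaled FPKM. The 130 bases before the start of 4 of these genes are printed 5′ to 3′ on the gene's own strand, from RefSeq on GRCm38.p6, and 5 of the 8 genes matched that table. Capitals mark CCAAT (read as ATTGG on the other strand), TATAAA, and GGGCGG (read as CCGCCC on the other strand), the letters of the CCAAT box, the TATA box and a GC box. TATAAA was searched on both strands like the others. The windows are chr1:45311408-45311537 for Col3a1, chr2:27886295-27886424 for Col5a1, chr9:20815068-20815197 (minus strand) for Col5a3 and chr3:114030410-114030539 for Col11a1.
Col3a1: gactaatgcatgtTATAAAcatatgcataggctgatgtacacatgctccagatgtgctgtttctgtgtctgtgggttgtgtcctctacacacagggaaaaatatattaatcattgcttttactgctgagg
Col5a1: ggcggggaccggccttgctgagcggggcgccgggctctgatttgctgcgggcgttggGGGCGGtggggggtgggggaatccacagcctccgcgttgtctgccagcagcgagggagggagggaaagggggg
Col5a3: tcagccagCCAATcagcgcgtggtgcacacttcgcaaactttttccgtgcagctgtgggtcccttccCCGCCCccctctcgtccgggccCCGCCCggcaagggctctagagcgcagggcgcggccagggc
Col11a1: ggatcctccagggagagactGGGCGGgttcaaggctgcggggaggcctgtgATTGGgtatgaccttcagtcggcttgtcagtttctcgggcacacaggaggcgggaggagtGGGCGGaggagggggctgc
Col3a1 has TATAAA at 117 to 112 bases before its start and a GC content of 40%. Col5a1, with 73.8% GC, has 1 GGGCGG, Col5a3, with 70% GC, has 1 CCAAT and 2 CCGCCC, and Col11a1, with 65.4% GC, has 1 ATTGG and 2 GGGCGG. Of all 32851 promoters of the table, 22.4% hold CCAAT, 6.83% TATAAA and 27.3% GGGCGG on either strand in this window. No matches overlap one another. The 3 printed promoters of type III and V genes have no motif of the 3 in common, and a match is a match of letters only.

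Differences were tested with limma on log2(value + 1) across all genes that reached a value of 1 in 4 or more mice of the comparison, and a gene was called at a Benjamini-Hochberg adjusted p below 0.05. The pseudocount of 1 makes the log2 changes of the type V genes smaller than their fold changes of means. The p-values measure the spread between the mice of a group. Between Acta2-tdT bleomycin and saline mice, Col1a1 rose by 7.62 ± 0.462 on the log2 scale (SE; limma adjusted p = 6.07e-06), Col1a2 by 7.06 ± 0.402 (adjusted p = 4.73e-06) and Col3a1 by 6.29 ± 0.477 (adjusted p = 1.08e-05). The type V genes rose by 5.19 ± 0.378 for Col5a1, 5.76 ± 0.420 for Col5a2 and 4.78 ± 0.329 for Col5a3. All 6 of these were called, and Col2a1 and Col11a1 did not pass the filter. The type V genes passed it only through the bleomycin mice, so their count carries no weight of its own. On FPKM the call was also the usual outcome, since 70.4% of all 12523 genes tested were called higher and the median change of all genes was 1.76 on the log2 scale.

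The scaled values set the collagens apart from that shift. On scaled FPKM the log2 change was 4.93 ± 0.279 for Col1a1 (limma adjusted p = 6.76e-06), 4.28 ± 0.240 for Col1a2 (adjusted p = 6.61e-06) and 3.61 ± 0.307 for Col3a1 (adjusted p = 1.49e-05). The type V genes followed with 3.01 ± 0.223 for Col5a1, 3.43 ± 0.248 for Col5a2 and 2.77 ± 0.214 for Col5a3. The same 6 genes were called higher, of which Col5a1 and Col5a3 again passed the filter through the bleomycin mice, against a background of 21.9% of the 12789 genes tested, and the median change of all genes was -0.42. By position alone, every bleomycin mouse was above every saline mouse for all 6 genes tested, on FPKM, where 67.8% of all genes tested were so placed, and on scaled FPKM, where 19.3% were, with the same limit for the type V genes. Scaled Col1a1 was at 157, 119, 208 and 216 in bleomycin mice 5 to 8 and at 3.84 to 5.58 in saline mice.

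**Figure D2:**
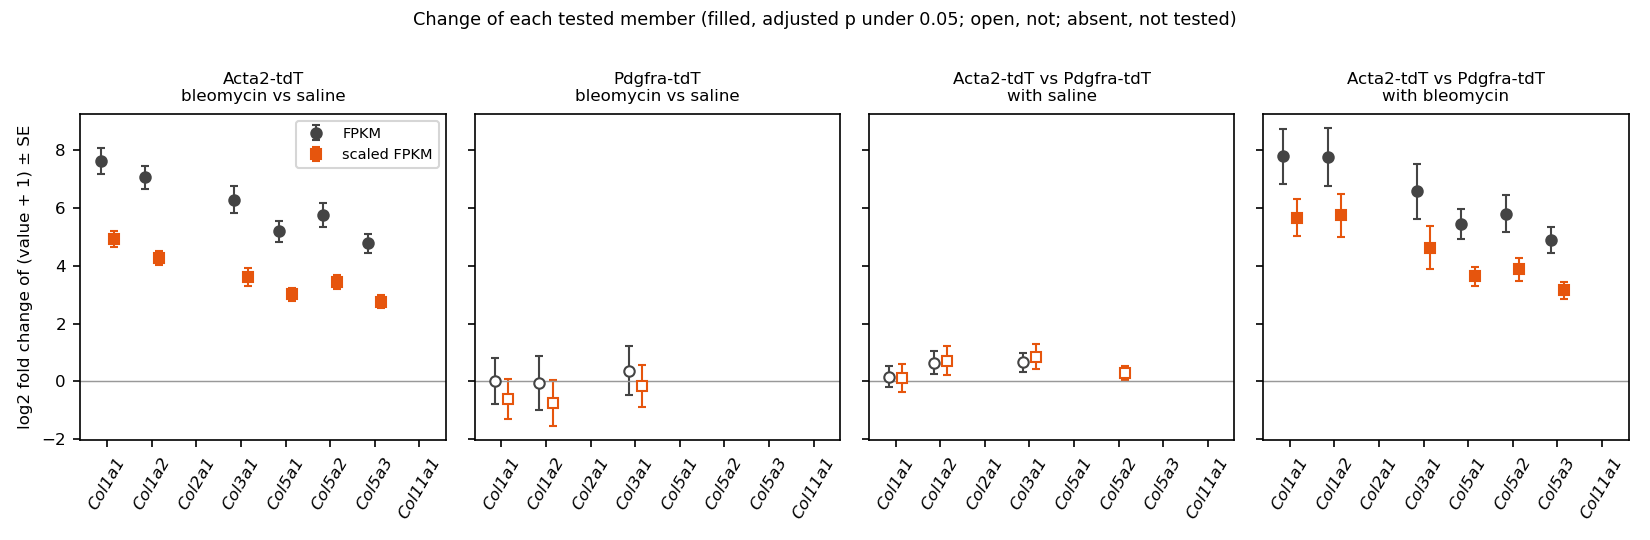
Log2 change of each fibrillar collagen gene that was tested, with its standard error, in the 4 comparisons, on FPKM (circles) and on scaled FPKM (squares), filled where called and open where not. Changes in Acta2-tdT cells lie between 2.77 and 7.62, while those within Pdgfra-tdT cells lie about 0.

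In all, the 8 genes took 0.0172% to 0.0226% of the nuclear protein-coding FPKM in Acta2-tdT saline mice and 0.337% to 0.568% in Acta2-tdT bleomycin mice. The composition of that share also shifted. Col1a1 made up 23.3 ± 0.999% of the summed collagen FPKM with saline and 38.2 ± 3.82% with bleomycin (SD, n = 4), Col1a2 36.1 ± 1.06% and 35.5 ± 4.88%, and Col3a1 23.9 ± 2.70% and 15.5 ± 2.61%. Col1a2 was the most abundant of the 8 in all 4 saline mice, with Col3a1 and Col1a1 behind it in changing order. In the bleomycin mice Col1a2 led in mice 5 and 6 and Col1a1 in mice 7 and 8, so the type I chains did not differ beyond the spread, and the order after them was Col3a1, Col5a2, Col5a1, Col5a3, Col11a1 and Col2a1 in all 4.

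**Figure D3:**
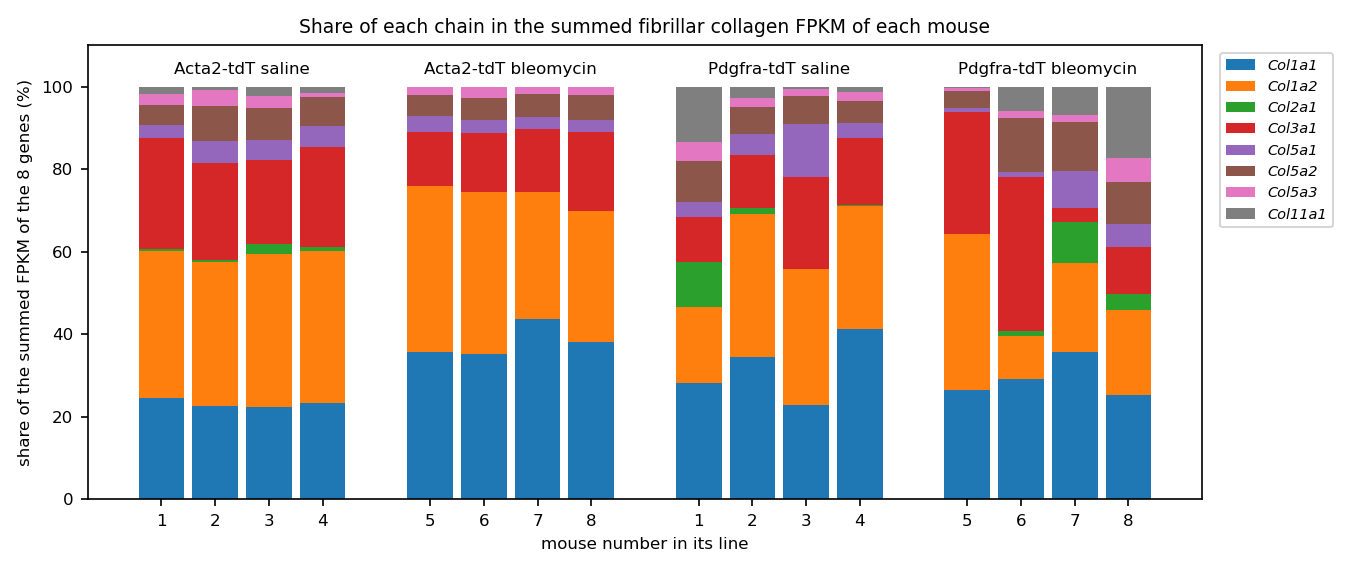
Share of each gene in the summed FPKM of the 8 fibrillar collagen genes, in percent, by mouse. In Acta2-tdT mice the Col1a1 share goes from a mean of 23.3% with saline to 38.2% with bleomycin, and the Pdgfra-tdT mice vary widely among themselves.

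Ratios between chains address whether the genes moved in step. The Col1a1 to Col1a2 ratio was 0.693, 0.650, 0.603 and 0.631 in Acta2-tdT saline mice and 0.887, 0.902, 1.41 and 1.20 in Acta2-tdT bleomycin mice. The groups did not overlap, and the difference of the mean log2 ratios was 0.75 ± 0.169 (SE, n = 4; exact two-sided permutation test p = 0.0286, adjusted p = 0.114 over 16 ratio tests). The Col3a1 to Col1a1 ratio was 1.10, 1.04, 0.917 and 1.04 with saline and 0.366, 0.411, 0.351 and 0.502 with bleomycin. Again the groups were apart, this time with the ratio lower with bleomycin, and the log2 difference was -1.34 ± 0.129 (SE, n = 4; exact permutation p = 0.0286, adjusted p = 0.114).

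The Col5a1 to Col1a1 ratio was 0.126, 0.233, 0.215 and 0.223 with saline and 0.108, 0.0884, 0.0657 and 0.0801 with bleomycin. It too was lower in every bleomycin mouse, with a log2 difference of -1.20 ± 0.256 (SE, n = 4; exact permutation p = 0.0286, adjusted p = 0.114), and saline mouse 1 lay closest to the bleomycin mice. Within type V, the Col5a1 to Col5a2 ratio had geometric means of 0.657 and 0.584 and overlapped between the groups (exact permutation p = 0.2, adjusted p = 0.457). With 4 mice against 4, 0.0286 is the smallest p the exact test can give, and no ratio reached an adjusted p of 0.05. The saline ratios that include Col5a1 rest on levels near the receptor-gene background.

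**Figure D4:**
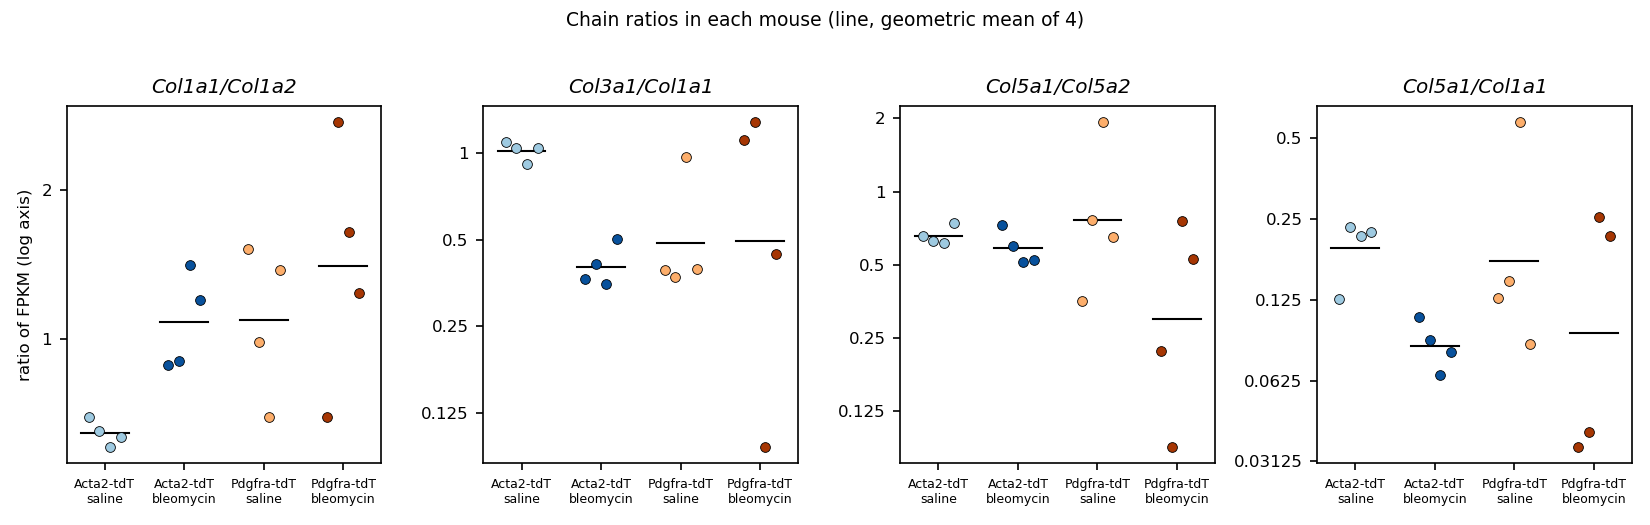
Ratios of chain levels, in 4 panels, within each mouse, on a log axis, by group, with one point per mouse and a line at the geometric mean of the 4. With bleomycin the Acta2-tdT mice have a higher Col1a1 to Col1a2 ratio (0.887 to 1.41 against 0.603 to 0.693) and a lower Col3a1 to Col1a1 ratio (0.351 to 0.502 against 0.917 to 1.10) than with saline.

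In Pdgfra-tdT cells no fibrillar collagen gene passed the test between bleomycin and saline. Col1a1 was at 0.353, 1.56, 2.24 and 3.65 FPKM in saline mice and at 13.3, 0.875, 0.503 and 0.296 FPKM in bleomycin mice 5 to 8. Bleomycin mouse 5 was above every saline mouse, while the other 3 bleomycin mice lay within the saline range or below it. Col1a2 was at 0.232 to 3.24 FPKM with saline, and at 19.2, 0.318, 0.305 and 0.239 FPKM with bleomycin. Col3a1 was at 0.139 to 2.19 FPKM with saline, and at 14.9, 1.13, 0.0477 and 0.132 FPKM with bleomycin. The same mouse 5 was the high one each time, and its Col5a2 level of 2.14 FPKM was also the highest of the line. The remaining type V, II and XI values of the line reached at most 1.28 FPKM, for Col5a1 in saline mouse 3.

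The log2 change of FPKM with bleomycin in Pdgfra-tdT cells was 0.00 ± 0.796 for Col1a1, -0.05 ± 0.938 for Col1a2 and 0.38 ± 0.849 for Col3a1 (SE; limma adjusted p = 0.9996, 0.987 and 0.868). None of the 3 tested was called, where 0.124% of all genes were, or 9 of 7275 (312 at an unadjusted p below 0.05, none of them a fibrillar collagen gene). On scaled FPKM the changes were -0.61 ± 0.698, -0.74 ± 0.789 and -0.17 ± 0.725, again with 0 called against 0.0684% of all genes. Without mouse 5, and with the filter lowered to 3 mice, the log2 changes of FPKM were -0.80 for Col1a1, -1.04 for Col1a2 and -0.51 for Col3a1, still not called. The change of Col1a1 also turned negative without saline mouse 1 (-0.33) or 2 (-0.02), so no direction can be given. Much larger changes of other genes went uncalled in this comparison, for example 4.69 ± 0.703 on log2 FPKM for the macrophage marker Lyz2 (SE; limma adjusted p = 0.0967), so these tests leave room for large changes of the collagen genes. Lyz2 was chosen as an example after its value was seen.

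The chain ratios of the Pdgfra-tdT line varied widely, with a Col3a1 to Col1a1 ratio of 0.0948 to 1.29 in its bleomycin mice, where the lowest rests on 0.0477 FPKM of Col3a1 in mouse 7 (Cufflinks interval 0 to 0.103 FPKM), below the receptor-gene background, and all 4 ratios overlapped between its groups.

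Mouse 5 of the Pdgfra-tdT bleomycin group differed from its group in other ways too. It had the highest nuclear protein-coding sum, 137952 FPKM, and the summed FPKM of the fibroblast marker list was 138 in it against 2.524 to 18.03 in the other 3. The endothelial list summed to 876 FPKM in mouse 5 against 3.83 to 89.8 in the others. In saline mouse 3 of the same line the fibroblast list, at 60.3 FPKM, and the endothelial list, at 334 FPKM, were also the highest of their group. The macrophage list of the line summed to 68.6 to 272 scaled FPKM with saline and to 1363 to 4052 with bleomycin, with 0 of its 8 tested genes called where 0.0684% of all genes were, and mouse 5, at 2416, lay inside that range. Whether these have a part in the collagen levels was not tested.

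With saline, the lines were not told apart by their fibrillar collagens. The log2 difference in FPKM, Acta2-tdT minus Pdgfra-tdT, was 0.17 ± 0.370 for Col1a1, 0.64 ± 0.396 for Col1a2 and 0.67 ± 0.331 for Col3a1 (SE; limma adjusted p = 0.88, 0.528 and 0.430). The 4 Acta2-tdT mice lay close together, between 1.76 and 2.44 FPKM for Col1a1, whereas the Pdgfra-tdT mice ran from 0.353 to 3.65 FPKM and held both the lowest and the highest value. None of the 3 genes tested was called against 2.91% of all genes, nor any of 4 on scaled FPKM against 1.86%. The Col3a1 difference was called without Pdgfra-tdT saline mouse 3, at 0.91 (limma adjusted p = 0.0427). The Col1a1 to Col1a2 ratio had geometric means of 0.643 in Acta2-tdT and 1.09 in Pdgfra-tdT saline mice, and the lines touched, with the highest Acta2-tdT ratio at 0.6928 and the lowest Pdgfra-tdT ratio at 0.6930 (exact permutation p = 0.0286, adjusted p = 0.114).

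With bleomycin, the type I, III and V genes were all higher in Acta2-tdT than in Pdgfra-tdT cells. The log2 difference in FPKM was 7.79 ± 0.944 for Col1a1 (SE; limma adjusted p = 8.87e-05), 7.75 ± 0.999 for Col1a2 (adjusted p = 0.000114), 6.58 ± 0.956 for Col3a1 (adjusted p = 0.0001995), and 4.90 to 5.81 for the type V genes. The lowest Acta2-tdT value of Col1a1, 275 FPKM in mouse 6, was far above the 13.3 FPKM of Pdgfra-tdT mouse 5. All 6 genes tested were called higher where 71% of all genes were. On scaled FPKM the differences were 5.66 ± 0.640 for Col1a1, 5.74 ± 0.742 for Col1a2 and 4.63 ± 0.731 for Col3a1 (limma adjusted p = 0.000337 for Col1a1 and 0.0014 for Col3a1), and all 6 were called against 18.3%. The type V genes and Col1a2 on either scale, and Col1a1 on FPKM, reached a value of 1 in at most 1 of the Pdgfra-tdT mice, so they passed the filter through the Acta2-tdT mice and these counts carry no weight of their own. Without Pdgfra-tdT mouse 5 the scaled differences were 6.21 for Col1a1, 6.52 for Col1a2 and 5.32 for Col3a1, and these were called as well. Marker genes differed too on scaled FPKM, against 18.3% of all genes called higher and 19.5% lower. Higher in Acta2-tdT mice were 7 of 7 smooth muscle, 3 of 3 neutrophil, 5 of 7 fibroblast and 1 of 8 macrophage genes. Lower were 3 of 4 endothelial, 2 of 8 macrophage and 1 of 1 lymphocyte genes, and 0 of 4 epithelial genes were called. The smooth muscle genes passed the filter mainly through the Acta2-tdT mice. The part of these markers in the collagen levels was not tested.

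The change with bleomycin differed between the lines by the interaction of line and agent. Acta2-tdT mice were labelled from 5 days after instillation and Pdgfra-tdT mice at 6 weeks of age. The interaction therefore cannot be told apart from the labelling schedule. On FPKM the difference of the log2 effects was 7.62 ± 0.994 for Col1a1 (SE; limma adjusted p = 0.000102), 7.11 for Col1a2 and 5.91 for Col3a1, with 4.80 to 5.59 for the type V genes, and all 6 were called where 36.6% of all genes were. On FPKM the type V genes reached a value of 1 in the 4 Acta2-tdT bleomycin mice and in at most 1 other mouse, so this count carries no weight of its own. On scaled FPKM it was 5.54 ± 0.826 for Col1a1 (adjusted p = 0.00346), 5.02 ± 0.947 for Col1a2 (adjusted p = 0.0191) and 2.97 to 3.61 for the type V genes, and 5 of 6 were called, where 0.599% of all genes were. Col5a1 and Col5a3 among them again reached a value of 1 mainly in Acta2-tdT bleomycin mice, so this count carries no weight of its own either. Col3a1 missed the threshold there, at 3.77 ± 0.904 (limma adjusted p = 0.0561), and passed it without Pdgfra-tdT bleomycin mouse 5, at 4.46 (adjusted p = 0.00346). It also passed with sample quality weights, at 4.26 (limma adjusted p = 0.00636). Col1a2 lost the scaled call, at adjusted p of 0.05001 to 0.06074, without Acta2-tdT saline mouse 3 or bleomycin mouse 5, 7 or 8.

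Markers of several cell types were present in the libraries of Acta2-tdT cells, and their levels differed between bleomycin and saline. The counts of called marker genes on scaled FPKM stand against 21.9% of all genes called higher and 45% called lower. The macrophage list summed to 292, 198, 391 and 724 scaled FPKM in saline and to 715, 1786, 2330 and 1052 in bleomycin mice, and 6 of its 7 tested genes rose. The neutrophil list summed to 2069 to 3114 scaled FPKM in saline mice and to 261 to 1792 in bleomycin mice, and 4 of its 6 tested genes fell, while on FPKM the list summed to 737 to 1512 and 1136 to 5701, with 3 of 5 tested genes called higher. The smooth muscle list, which includes Acta2, went from 481 to 715 in saline to 666 to 1018 scaled FPKM in bleomycin mice, with 2 genes called higher and 1 lower of 7, and from 177 to 413 to 1796 to 4716 on FPKM, with 6 of 7 called higher. On FPKM 70.4% of all genes were called higher, so neither FPKM count is far from the share of all genes. The fibroblast list summed to 48.3 to 71.5 scaled FPKM in saline and 119 to 205 in bleomycin mice, with 5 of 7 tested genes higher, and its member Tcf21 was listed at 0 in 3 of the 4 bleomycin mice. Of the remaining lists, 4 of 4 tested lymphocyte genes and 1 of 3 endothelial genes were called lower and 0 of 4 epithelial genes were called on scaled FPKM, while on FPKM 0 of 2, 3 of 3 and 5 of 5 of them were called higher. Acta2 itself rose by 3.13 on log2 FPKM (limma adjusted p = 6.31e-05) but differed by 0.14 on scaled FPKM (adjusted p = 0.668), where Col1a1 differed by 4.93. More cells of a type and more RNA per cell cannot be told apart in these bulk libraries, and the part of these markers in the collagen levels was not tested.

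Building a fibril takes enzymes beside the chains, and most of the genes for these also rose in Acta2-tdT cells. On scaled FPKM, 17 of 20 tested genes for procollagen folding, hydroxylation and processing were higher with bleomycin and 1 was lower, of 25 listed, with a median log2 change of 1.64. The largest rises were of Fkbp10 (3.31), an endoplasmic reticulum chaperone and prolyl isomerase of procollagen, Pcolce (2.97), the enhancer of C-propeptide cleavage, and P4hb (2.81), the beta subunit of prolyl 4-hydroxylase. Its relative Pcolce2 fell by 1.63 on scaled FPKM but was called higher on FPKM (0.84, limma adjusted p = 0.0471). All 4 tested genes of cross-linking rose, of 5 listed, with Lox, the lysyl oxidase that oxidises the lysines to be joined, at 3.04, Loxl3 at 2.08 and Loxl1 at 1.60. These counts stand against 21.9% of all genes called higher, 45% called lower and a median of -0.42.

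Proteins that bind the fibril moved likewise. All 10 tested fibril-binding genes rose on scaled FPKM, of 11 listed, with a median of 2.77, and the largest rises were of Cthrc1 (4.87), a secreted protein found in injured tissue, Fn1 (4.52), the fibronectin on which collagen is laid down, and Thbs2 (3.24), a thrombospondin involved in fibril assembly. Of the basement membrane, microfibrillar and fibril-associated collagens, 9 of 11 tested rose, of 14 listed, led by the type VI chains Col6a2 (2.96), Col6a3 (2.88) and Col6a1 (2.36). Both counts stand against 21.9% of all genes called higher, 45% called lower and a median of -0.42. Col27a1, a more distant fibrillar collagen, rose on FPKM (2.06) but was not called on scaled FPKM (0.32, limma adjusted p = 0.181).

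In the list for breakdown and uptake 6 of 9 tested genes rose and 1 fell, of 10 listed. Timp1, an inhibitor of matrix metalloproteinases, rose by 5.13 and the collagen-cleaving proteases Mmp14 and Mmp2 by 2.94 and 2.90, while Timp3, another inhibitor of this family, fell by 1.19 but was called higher on FPKM (1.70). Among collagen receptors, 1 of 5 tested genes rose, Itgb1 (1.71), the beta 1 integrin chain, and Gp6, the platelet collagen receptor, and Itga1, an integrin alpha chain, fell by 1.20 and 0.57. These receptor counts are about the shares of all genes, 21.9% higher and 45% lower. On FPKM 6 of 6 tested receptor genes were called higher, Itga1 among them (1.03), where 70.4% of all genes were. Gp6 did not pass the filter on FPKM, so its fall is seen on scaled FPKM only. Of the TGF-beta ligands, receptors and targets, 5 of 8 tested rose, among them Ctgf (1.87) and Tgfb2 (1.56), and Tgfbr1, the type I receptor, fell by 2.96 (-0.49 on FPKM, not called). On FPKM none of the genes in these lists was called lower between Acta2-tdT bleomycin and saline mice.

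Some of these genes also passed the filter only through the bleomycin mice. Those with a median scaled FPKM of at least 1 in Acta2-tdT saline mice were 21 of 25 for folding and processing, 2 of 5 for cross-linking, 9 of 11 for fibril-binding, 9 of 14 for the other collagens, 7 of 10 for breakdown, 5 of 9 for receptors and 7 of 12 for TGF-beta. Between Pdgfra-tdT bleomycin and saline mice 0 genes of any of these lists were called on either scale, where 0.124% (FPKM) and 0.0684% (scaled) of all genes were. Between the lines with bleomycin, on scaled FPKM, 15 of 20 tested genes for folding and processing, 4 of 4 for cross-linking and 10 of 10 for fibril-binding were higher in Acta2-tdT cells, against 18.3% of all genes. In Pdgfra-tdT bleomycin mice 12 of 25, 0 of 5 and 6 of 11 of these lists had a median scaled FPKM of at least 1, so many of these genes passed the filter through the Acta2-tdT mice and the counts carry no weight of their own.

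**Figure D5:**
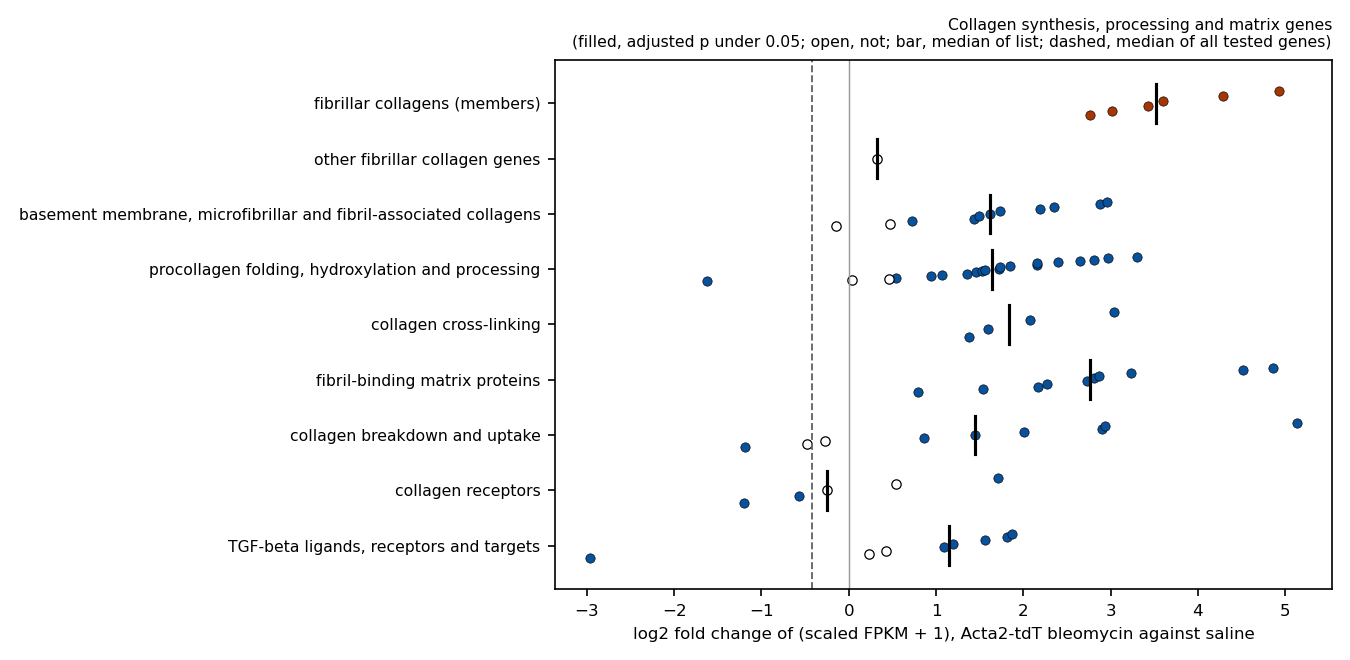
Log2 change on scaled FPKM between Acta2-tdT bleomycin and saline mice for the tested genes of the collagen-related lists, one point per gene, filled where called and open where not, with a bar at each list's median and a dashed line at the median of all genes tested (-0.42). Fibril-binding genes have a median of 2.77 and the folding genes 1.64, and Pcolce2, Timp3 and Tgfbr1 lie on the lower side on this scale, of which Pcolce2 and Timp3 were called higher on FPKM.

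Over all 16 mice, 5 of the 7 other members followed Col1a1. On log2(scaled FPKM + 1), Col5a2 and Col1a2 had a Pearson correlation of 0.984 with Col1a1 (Spearman rho 0.874 and 0.918) and Col3a1 of 0.973 (rho 0.906). Col5a3 had 0.968 (rho 0.838) and Col5a1 0.959 (rho 0.777), against -0.130 for Col11a1 and -0.647 for Col2a1. Of 8247 genes searched, the 5 others most like Col1a1 were Timp1 (r = 0.979), Fkbp10 (r = 0.976), Ckap4 (r = 0.974), a membrane protein of the endoplasmic reticulum, Thbs2 (r = 0.974) and Nrep (r = 0.972), with rho from 0.818 to 0.909. Mean Timp1 went from 4.43 FPKM with saline to 1421 FPKM with bleomycin in the Acta2-tdT line, and was 4.19 and 7.64 FPKM in the Pdgfra-tdT line. The 4 Acta2-tdT bleomycin mice form a cluster far above the other 12 points, so these coefficients describe mainly that gap.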

How the data were processed

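The deposited tables gave, for each of 16 sorted-cell libraries, an FPKM estimate per gene that the authors made before deposit. The submitters' processing notes name TopHat2 2.1.1, Bowtie2 2.2.9, Cufflinks 2.1.1 and Cuffdiff. Samples were grouped by the line and agent in their labels. The tables hold no read counts, but their Cufflinks intervals, taken as counting error, imply about 552327 to 8284146 fragments on genes per mouse, an estimate that covers no difference between mice. The FPKM of rows with the same gene identifier were summed, 15 genes without an estimate were left out, and no pair of mice had identical values. FPKM were then used as they stand and scaled to a nuclear protein-coding sum of 100000.

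Genes that reached a value of 1 in 4 or more of the 8 mice of a comparison (of all 16 for the interaction) were tested with limma 3.58.1 in R 4.3.3 on log2(value + 1), fitted on the groups compared, with Benjamini-Hochberg adjustment over all genes tested. The fit was checked on simulated data, 2 groups of 4 with equal spread around the Acta2-tdT saline mice. At a log2 change of 1 it found 90 of 200 changed genes with 4 false calls, and at 3 it found 189 with 14. The check does not cover groups of unlike spread. Chain ratios were compared with exact permutation tests in SciPy 1.17.1. The members and gene lists were chosen with earlier results of these data known. Named were all 8 members, the line markers, the 5 genes most like Col1a1 (by Pearson correlation over the 16 mice) and, per list, up to 3 of the largest rises and falls among called genes; Tcf21, Lyz2, Lect1, Matn1, Sox9 and Col27a1 were chosen after their values were seen. Alternatives were another pseudocount, filter and scaling, quantile normalization, sample quality weights, the replicate block and each mouse left out; leaving out mice with a filter of 3 mice was chosen after seeing the data.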

Additional observations from a re-analysis of the deposited data

Results flagged for a closer look

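In 14 of 88 sets of 4 mice, 1 mouse lay farther from its nearest neighbour than the critical share of the range in Dixon's test. About 1 in 20 independent sets with normal spread pass it by chance. These sets share mice and genes across FPKM, scaled FPKM, sums and ratios, so the 14 cannot be read against that rate. Pdgfra-tdT bleomycin mouse 5 accounts for most of the 14. It lay above the rest of its group for Col1a1 (13.3 FPKM, or 9.66 scaled), Col1a2 (19.2 FPKM, or 13.9 scaled), Col3a1 (14.9 FPKM), Col5a2 (2.14 FPKM), Col5a3 (0.342 FPKM) and the sum of the 8 genes (50.6 FPKM, or 36.7 scaled). Col2a1 was above 0 in 1 Acta2-tdT bleomycin mouse, mouse 5 (0.0150 FPKM, or 0.00472 scaled). Pdgfra-tdT saline mouse 3 had the highest ratios of its group for Col3a1 to Col1a1 (0.976) and Col5a1 to Col1a1 (0.573), and Acta2-tdT saline mouse 1 had the lowest Col5a1 to Col1a1 ratio of its group (0.126).

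The change with bleomycin differed between the lines, as tested by limma's interaction term, which cannot be told apart from the labelling schedule. On log2 FPKM the difference was 7.62 for Col1a1, 7.11 for Col1a2, 5.91 for Col3a1, 5.46 for Col5a1, 5.59 for Col5a2 and 4.80 for Col5a3. On log2 scaled FPKM it was 5.54 for Col1a1, 5.02 for Col1a2, 3.61 for Col5a1, 3.59 for Col5a2 and 2.97 for Col5a3. Col3a1 on scaled FPKM was not called (3.77, limma adjusted p = 0.0561). The type V genes reached 1 FPKM in at most 1 mouse outside the Acta2-tdT bleomycin group, so they passed the filter through the group where they are high.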

How the results depend on the processing

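Of 64 recomputed counts of called genes with a setting other than a left-out mouse, 63 stayed within 1.5 times the reported count, and the exception was the comparison of the lines with saline on FPKM under sample quality weights, with 1 gene called (Col3a1, 0.90, limma adjusted p = 0.0307). With 1 mouse left out the counts ranged from 3 to 6 for Acta2-tdT bleomycin against saline on FPKM (5 to 6 scaled). Between the lines they ranged from 0 to 1 with saline on FPKM and from 4 to 6 with bleomycin on either scale. For the interaction they ranged from 5 to 6 on FPKM and from 3 to 6 scaled. The 3 for Acta2-tdT bleomycin against saline on FPKM arose without any one of the bleomycin mice, because the type V genes then no longer passed the filter of 4 mice. With a filter of 3 mice, chosen after seeing the data, the count of that comparison was 6 each time. It was 4 to 6 for the scaled interaction, where Col1a2 lost its call without Acta2-tdT saline mouse 3, Acta2-tdT bleomycin mouse 5, 7 or 8, Pdgfra-tdT saline mouse 4 or Pdgfra-tdT bleomycin mouse 6 or 7. Small differences changed sign. In Pdgfra-tdT cells, the FPKM change of Col1a1 was -0.27 with a pseudocount of 0.1, -0.45 after quantile normalization and -0.49 with weights, and that of Col3a1 -0.05 with weights. Between the lines with saline, Col1a1 was at -0.13 after quantile normalization and, scaled, at -0.05 with weights and -0.33 with the 50 highest genes left out of the sum. With a pseudocount of 1 in the ratio, the log2 difference was 0.039 for Col1a1 to Col1a2 and -0.351 for Col5a1 to Col5a2 between the lines with bleomycin, and -0.17 for Col5a1 to Col1a1 with saline. When ratios were limited to genes with FPKM of at least 1, the Acta2-tdT differences for Col1a1 to Col1a2 (0.75) and Col3a1 to Col1a1 (-1.34) reached an adjusted exact permutation p of 0.0429, because fewer tests were made. The cause of the other changes was not tested.
With 1 mouse left out, log2 changes in Pdgfra-tdT cells ranged from -0.80 to 0.35 for Col1a1, -1.04 to 0.30 for Col1a2 and -0.51 to 0.80 for Col3a1 on FPKM, and -0.85 to 0.28 for scaled Col3a1. Col1a1 between the lines with saline ranged from -0.16 to 0.43 on FPKM and -0.30 to 0.49 scaled. For Col3a1 to Col1a1 the ratio difference ranged from -0.43 to 0.83 in Pdgfra-tdT cells and -1.10 to 0.16 between the lines with bleomycin, for Col5a1 to Col5a2 from -0.59 to 0.23 between the lines with saline, and for Col5a1 to Col1a1 from -0.18 to 0.73 with saline and -0.63 to 0.32 with bleomycin.
Same-numbered mice of the lines had correlated deviations of -0.251 to 0.125, so the numbers do not pair the mice. With the replicate block, 0 genes were called between the lines with saline and 6 with bleomycin, on either scale, as without it.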
